A study of Mus musculus with 8 samples.

Results

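The data described here are the RNA levels of 8 NLR family genes of the mouse oocyte, Nlrp4a, Nlrp4b, Nlrp4c, Nlrp4e, Nlrp9a, Nlrp9b, Nlrp9c and Nlrp14. They were taken by gene symbol. All 8 were found in every expression table, among 15962 genes listed throughout, and all 8 passed the filter on low values that left 13968 genes for testing. Oocytes came from superovulated ICR females 6 weeks old, and 2 libraries of 15 pooled oocytes each were analysed for each of 4 groups. GV oocytes are fully grown oocytes arrested in meiotic prophase. MII oocytes had matured in culture to the second meiotic arrest. Btg4wt and Btg4tm oocytes were MII oocytes that had been injected with cRNA for Myc-tagged BTG4. BTG4 is an adaptor that brings a deadenylase to maternal mRNAs. Btg4wt is the wild-type protein, and in Btg4tm 3 adjacent threonine and serine residues were changed to alanine. Every group kept its own Btg4 gene, and how much BTG4 protein each held was not analysed here.

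NLRP proteins hold a nucleotide-binding NACHT domain and leucine-rich repeats, and many serve in innate immunity as sensors that build inflammasomes. In rodents a branch of the family has multiplied in tandem and is expressed mainly in oocytes, where several products are maternal proteins that the early embryo needs. Nlrp14 is needed for female fertility and its product has been linked to UHRF1 and to calcium handling in the oocyte. The Nlrp4 copies arose from each other by duplication, as did the Nlrp9 copies. Nlrp5, also called Mater, belongs to the same family and is a core part of the subcortical maternal complex. Because transcription is silent from the end of oocyte growth, the level of such an mRNA during maturation depends on its decay, its storage and the length of its poly(A) tail.

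All 8 genes lie on chromosome 7 of GRCm38 in the GENCODE M21 annotation. Nlrp4c runs from 6045161 to 6105150, Nlrp4b from 10687789 to 10730168 and Nlrp9b from 19991465 to 20073306, all on the plus strand. Nlrp4e, from 23301192 to 23362277 on the plus strand, stands beside Nlrp5. Nlrp9c (26322473 to 26403700, minus strand), Nlrp4a (26435113 to 26476142, plus strand) and Nlrp9a (26535023 to 26575615, plus strand) form 1 cluster with gaps of 31413 and 58881 bases. Nlrp14 is apart from the rest, from 107166990 to 107198102 on the plus strand, 80591375 bases beyond Nlrp9a. The longest coding transcripts have 9 to 11 exons and encode 863 to 1004 residues, the shortest being that of Nlrp4b and the longest those of Nlrp9a and Nlrp9c.

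The codons of the Walker A loop are set side by side, because this phosphate-binding loop of the NACHT domain is present in each of the 8 genes. They were found in the translated coding sequence as glycine, any 4 residues, glycine, lysine and then serine or threonine. The loop begins at residue 154 in Nlrp4a, Nlrp4c and Nlrp4e, at residue 149 in Nlrp4b and the 3 Nlrp9 genes, and at residue 87 in Nlrp14. The sequences are shown 5′ to 3′ with the 24 bases of the loop in capitals and 15 bases on each side.
Nlrp4a: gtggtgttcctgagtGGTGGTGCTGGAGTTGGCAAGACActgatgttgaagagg
Nlrp4b: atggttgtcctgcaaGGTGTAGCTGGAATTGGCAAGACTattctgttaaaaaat
Nlrp4c: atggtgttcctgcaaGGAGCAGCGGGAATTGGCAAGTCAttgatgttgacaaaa
Nlrp4e: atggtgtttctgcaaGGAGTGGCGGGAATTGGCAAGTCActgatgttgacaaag
Nlrp9a: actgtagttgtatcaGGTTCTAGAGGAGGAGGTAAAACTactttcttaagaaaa
Nlrp9b: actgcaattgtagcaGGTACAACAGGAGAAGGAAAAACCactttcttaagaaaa
Nlrp9c: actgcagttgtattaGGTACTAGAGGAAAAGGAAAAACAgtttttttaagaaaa
Nlrp14: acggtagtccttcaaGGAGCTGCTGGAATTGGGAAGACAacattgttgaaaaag
Nlrp4c and Nlrp4e differed at 5 of these 54 bases, the 3 Nlrp9 genes differed from each other at 9 or 10, and Nlrp4a differed from Nlrp9b at 32. Nlrp14 differed from Nlrp4b at 13, as Nlrp4b did from Nlrp4c, and Nlrp4a differed from Nlrp4b at 17. This short stretch therefore does not set Nlrp14 apart from the Nlrp4 genes. Over the whole coding sequence Nlrp4c and Nlrp4e were 93.9% identical. Nlrp9a and Nlrp9c were 87.7% identical, and Nlrp14 was between 59.2% and 61.0% identical to each of the other 7 genes.

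This likeness bears on the values, because reads that map to several places with low confidence were dropped before counting. Nlrp4b and Nlrp14 shared no stretch of 50 bases with a transcript of any other gene. Of the 50-base windows of Nlrp4e, 36.9% also occurred elsewhere, and 11.5% of its 100-base windows did. Its copies were mainly unprocessed pseudogenes such as Gm16443 and Gm8486, whose mean levels were 2.59 and 4.41 scaled TPM against 150.0 for Nlrp4e itself. These pseudogenes were looked up after the values had been seen. For Nlrp4c 11.9% of the 50-base windows were shared, most often with Nlrp4e, and for Nlrp4a, Nlrp9a, Nlrp9b and Nlrp9c the share was between 3.11% and 6.54%. By the 50-base windows the levels of Nlrp4c and Nlrp4e are therefore the least certain of the 8. By the 100-base windows only Nlrp4e stands apart, since 0.94% were shared for Nlrp4c and 1.36% for Nlrp9b. No exon of another gene overlapped an exon of these genes except for 3.65% of the exonic bases of Nlrp9b.

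The 3′ ends are shown because polyadenylation during maturation is read from signals there. Within the last 100 bases of the longest coding transcript, the hexamer AATAAA or ATTAAA was found in 6 of the 8 genes and in 78.0% of 11097 genes tested that have a coding transcript. A cytoplasmic polyadenylation element (CPE) spelled TTTTAT or TTTTAAT was found in Nlrp4a and Nlrp4c, 2 of the 8, against 18.9% of all these genes. Only the transcript strand was searched, and overlapping matches were allowed. Each site below is 30 bases, 5′ to 3′, with the matched letters in capitals.
Nlrp4a: tcatccaaTTTTATgtcatctctcactttc
Nlrp4b: gctgtttttctgttttgtATTAAAgaataa
Nlrp4c: gctgttttgtgttTTTTATTAAAtAATAAA
Nlrp4e: ctggtatcttaagcatcgAATAAAatcttt
Nlrp9a: tatactacaagcacattcAATAAAcactaa
Nlrp9b: tatattacaagcacatttAATAAAcactaa
Nlrp9c: tatattacaagcacATTAAATAAAcactaa
Nlrp14 held none of these motifs in its last 100 bases. In Nlrp4c the CPE overlaps the ATTAAA. In Nlrp4a the CPE stands 47 bases from the annotated end without a hexamer. No match says only that the letters are not in this window. The annotated end of a transcript was not checked against reads.

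The promoters were compared because duplicated genes can keep the same upstream sequence. RefSeq gave promoter windows for 7 of the 8 genes, from 250 bases before to 50 bases after the start, and Nlrp14 was not among them. Nlrp9a and Nlrp9c were the most alike. Over 203 aligned bases upstream of both starts they were 96.1% identical, and Nlrp9a had an inserted A- and T-rich stretch. Both are shown 5′ to 3′ on the gene's own strand, on GRCm38.p6, with the bases that the other gene does not share in capitals. The stretch of Nlrp9c is chr7:26403745-26403950 on the minus strand and that of Nlrp9a is chr7:26534786-26535022 on the plus strand.
Nlrp9c: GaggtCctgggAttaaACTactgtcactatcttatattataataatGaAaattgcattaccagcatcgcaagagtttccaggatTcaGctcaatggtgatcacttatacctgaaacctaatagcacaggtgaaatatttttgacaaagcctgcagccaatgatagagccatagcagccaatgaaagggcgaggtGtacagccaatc
Nlrp9a: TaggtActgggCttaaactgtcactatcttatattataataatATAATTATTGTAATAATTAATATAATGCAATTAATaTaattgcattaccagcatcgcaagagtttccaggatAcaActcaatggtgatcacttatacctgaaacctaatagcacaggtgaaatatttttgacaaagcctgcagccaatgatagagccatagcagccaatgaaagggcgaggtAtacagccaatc
The 7 genes had 9 windows, since Nlrp4a and Nlrp4b each had an additional window. Over whole windows, which include the first transcribed bases, Nlrp9a and Nlrp9c were 96.4% identical over 253 aligned bases. The next most alike pair was a window of Nlrp4b and a window of Nlrp4a, 80.4% identical over 281 bases. With the other Nlrp4a window the Nlrp4b windows were only 56.5% and 60.6% identical.

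The values are TPM, a share of the library's transcripts corrected for gene length. Levels and ranks between genes rest on the gene lengths that the authors used, which are not given in the sources used here. They were scaled by the median of ratios over the genes above 0 in every library, and changes are differences of log2(scaled TPM + 1). A gene passed the test where its Benjamini-Hochberg adjusted p of limma was under 0.05, and it was called where its change was also more than 1 on the log2 scale. TPM keep no sequencing depth, which is unknown, and fewer molecules, shorter poly(A) tails and less RNA per oocyte cannot be told apart in them. Libraries of a group correlated at 0.982 to 0.987 over all genes, and no library stood apart. Oocyte markers were abundant in every library, with 11 of 11 listed and a summed level of 36180 to 49450 TPM as deposited. Of the 14 cumulus and granulosa markers 8 were listed in at least one table, and their deposited TPM summed to 36.0 to 48.2. Among the defining ones Foxl2 was not listed in the tables used here, Lhcgr was at most 0.337 TPM as deposited, and Fshr was listed for the injected oocytes only, at no more than 1.42 TPM as deposited. Cyp19a1 was higher, at 15.7 to 26.8 scaled TPM, as was Nr5a2, at 8.97 to 20.9. Inha moved with the groups, at 4.37 and 2.11 scaled TPM in GV, 0 and 0.532 in MII, 1.88 and 1.09 in Btg4wt, and 9.83 and 5.18 in Btg4tm. It was called lower in MII against GV (-1.72) and higher in Btg4tm against Btg4wt (1.74), and its part in the results was not tested. The 7 macrophage and blood markers, of which 2 were listed and Ptprc was not, summed to 3.44 to 7.76. Mitochondrially encoded genes took 0.625% and 0.651% of the listed TPM in GV, 2.71% and 2.60% in MII, 2.07% and 1.77% in Btg4wt, and 0.774% and 1.03% in Btg4tm, and the part of this in the results was not tested. Btg4 itself was at 2650 and 2794 scaled TPM in GV, 5792 and 6002 in MII, 5178 and 5510 in Btg4wt, and 3725 and 4068 in Btg4tm.

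Nlrp14 was by far the most abundant of the 8 genes. In GV oocytes it stood at 2916 and 2581 scaled TPM, rank 27 of 15962 genes by mean level, and in MII, Btg4wt and Btg4tm oocytes its rank was 54, 45 and 39. It made up 46.0% to 62.7% of the summed level of the 8 genes in a library. The 3 Nlrp9 genes followed in GV oocytes, with Nlrp9a at 483 and 442, Nlrp9b at 408 and 425, and Nlrp9c at 391 and 343. Nlrp4a was at 345 and 361, Nlrp4b at 250.2 and 255, and Nlrp4e at 134 and 116. Nlrp4c was at 15.1 and 13.1, rank 5966 of the listed genes and well below its closest copy Nlrp4e. In this order only the neighbours Nlrp9c and Nlrp4a overlapped in GV oocytes. Neighbours in the order did not overlap in MII or Btg4wt oocytes, and in Btg4tm oocytes the overlapping neighbours were Nlrp9b and Nlrp4b. The order itself changed. In MII oocytes Nlrp9c and Nlrp4a stood next after Nlrp14, above Nlrp9a, and in Btg4wt oocytes Nlrp4a stood above Nlrp9c. In Btg4tm oocytes Nlrp9a was again second, ahead of Nlrp9c and Nlrp4a.

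**Figure D1:**
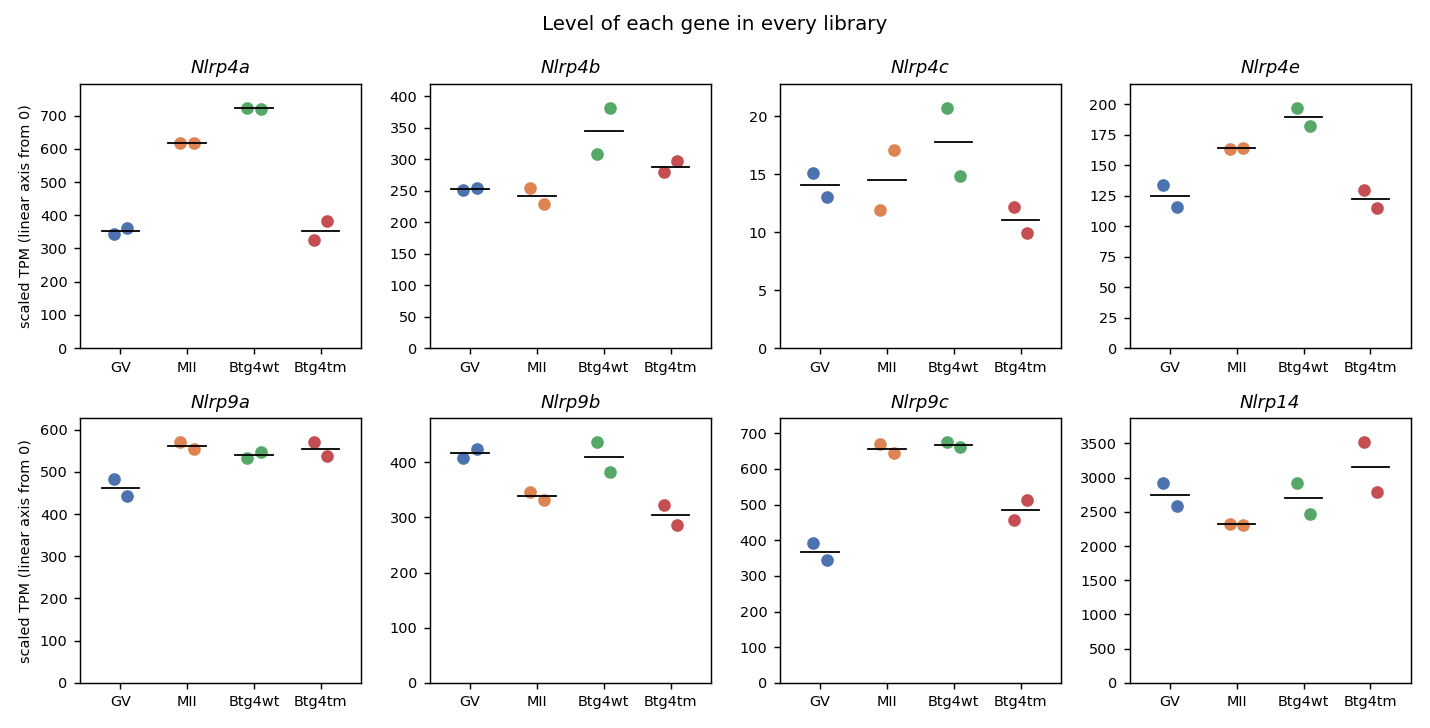
Level of each of the 8 genes in scaled TPM on a linear axis from 0, with 1 panel per gene, 1 point per library and a bar at the mean of the 2 libraries of each group. Nlrp4a and Nlrp9c stand higher in MII and Btg4wt than in GV and Btg4tm, while Nlrp14 lies between 2312 and 3514 in all libraries.

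The first comparison asks what happened to these mRNAs during maturation, MII against GV. None of the 8 genes fell by more than 1 on the log2 scale and none rose by more, while 24% of all genes tested were called lower and 12.5% were called higher. With no minimum change, 4 of the 8 passed an adjusted p of 0.05 as higher and 1 as lower, against 29.8% and 32.8% of all genes. The median change of the 8 genes was 0.15 and that of all genes was -0.0017. Directions here hold relative to the median of ratios over all genes. With the libraries scaled to the mitochondrially encoded genes instead, all genes shifted by a median of -1.74, and all 8 were called lower, as were 81.6% of all genes. The passes with no minimum change depended on single libraries. Without GV replicate 2, without MII replicate 1 or without MII replicate 2, only Nlrp4a and Nlrp9c still passed, and Nlrp9b passed in none of the 4 fits that left out a library (limma adjusted p from 0.0784 to 0.194).

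Among the Nlrp4 genes, Nlrp4a rose in MII oocytes. Its level was 345 and 361 scaled TPM in GV and 616 and 617 in MII. Both MII libraries were far above both GV libraries. The change was 0.80 ± 0.10 (SE, n = 2 libraries per group, limma adjusted p = 0.00021), a fold of 1.75, which is under the size that a call required. Nlrp4e was at 134 and 116 in GV and at 163 and 164 in MII, again without overlap, and the change was 0.39 ± 0.11 (adjusted p = 0.0156, limma). For Nlrp4b, at 250.2 and 255 in GV and 254 and 229 in MII, the groups overlapped and the change was -0.07 with a 95% interval from -0.35 to 0.21. Nlrp4c, at 15.1 and 13.1 in GV and 11.9 and 17.1 in MII, overlapped as well, and its interval ran from -0.50 to 0.55.

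The 3 Nlrp9 genes went different ways in spite of their likeness. Nlrp9c was at 391 and 343 in GV oocytes and at 670.0 and 644 in MII oocytes. Its change was 0.84 ± 0.10 (adjusted p = 0.000184, limma), a fold of 1.79, which differed from that of Nlrp4a by less than the SE. Nlrp9a, whose upstream sequence is shown above beside that of Nlrp9c, was at 483 and 442 in GV and 570.0 and 553 in MII. The groups did not overlap, and the change of 0.28 ± 0.09 was smaller than that of Nlrp9c (adjusted p = 0.0262, limma). Nlrp9b was lower, at 408 and 425 in GV and 347 and 332 in MII, a change of -0.29 ± 0.11 (adjusted p = 0.0396, limma). It was the only one of the 8 that passed the test as lower under this scaling, and it did not pass when any of the 4 libraries was left out.

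Nlrp14 was at 2916 and 2581 in GV and at 2328 and 2312 in MII. Both MII libraries lay below both GV libraries, but the change of -0.24 ± 0.14 did not pass the test (adjusted p = 0.168, limma). It did pass as lower with TPM as deposited (-0.40, adjusted p = 0.0439, limma) and with quantile normalization (-0.85, adjusted p = 0.00217, limma). Under the median of ratios its 95% interval ran from -0.57 to 0.08, so a fall by more than 1 lay outside it. The sum of the 8 genes went from 4942 and 4535 scaled TPM in GV to 4960 and 4868 in MII. Over the same step its share of the sum went from 59.0% and 56.9% to 46.9% and 47.5%.

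**Figure D2:**
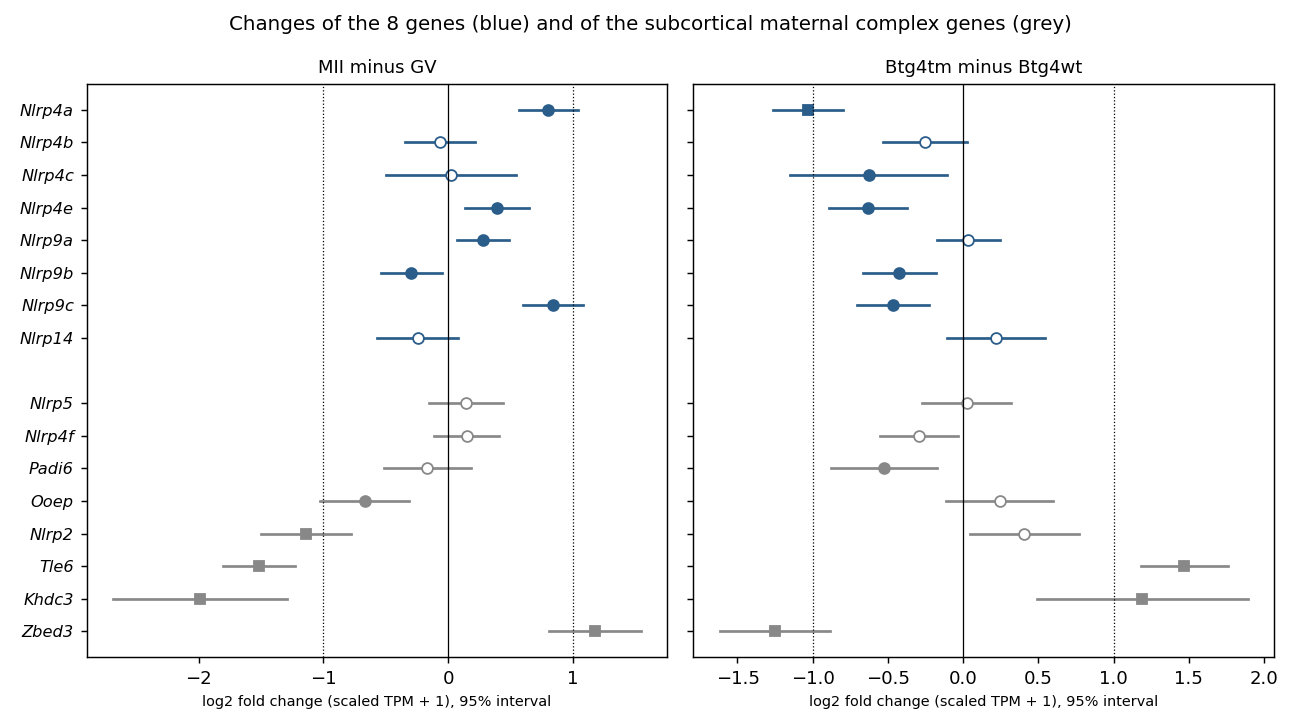
Change of the 8 genes (blue) and of 8 subcortical maternal complex genes (grey) for MII minus GV and Btg4tm minus Btg4wt, as log2 fold change of scaled TPM + 1 with its 95% interval from limma. Filled markers passed an adjusted p of 0.05, squares were also past the dotted lines at 1, and open circles did not pass. Nlrp4a and Nlrp9c lie at 0.80 and 0.84 on the left and at -1.03 and -0.47 on the right.

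The second comparison, Btg4tm against Btg4wt, asks how these mRNAs differ when the injected BTG4 has 3 residues changed to alanine. Btg4 RNA itself also differed, at -0.46 (adjusted p = 0.00569, limma), and its part in the results was not tested. Nlrp4a was called lower, 1 of the 8 genes against 7.94% of all genes, and none was called higher against 18.1% of all genes. With no minimum change 5 of the 8 were lower, against 23.3% of all genes, and none was higher, against 26.2%. The median change was -0.45, that of all genes was 0.0077, and that of the 8 lay below it. In 6 genes both Btg4tm libraries were below both Btg4wt libraries, as in 36.7% of all genes, and the other 2, Nlrp9a and Nlrp14, overlapped. Directions here too hold relative to the median of ratios. With the libraries scaled to the mitochondrially encoded genes, the median of all genes was 0.88 and all 8 changes were positive.

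Nlrp4a was at 724 and 719 scaled TPM in Btg4wt and at 324 and 383 in Btg4tm. The groups were far apart, and the change was -1.03 ± 0.10 (adjusted p = 8.87e-05, limma). It stood just past the size for a call. Without Btg4tm replicate 1 the change was -0.92 and no gene of the 8 was called lower. Nlrp4e was at 197 and 182 in Btg4wt and at 129 and 115 in Btg4tm, a change of -0.63 ± 0.11 (adjusted p = 0.00201, limma). Its near copy Nlrp4c was at 20.7 and 14.8 against 12.2 and 9.93, with a change of -0.63 ± 0.23 that barely passed (adjusted p = 0.0493, limma). It did not pass with a pseudocount of 0.1 (adjusted p = 0.0532) or with no filter (adjusted p = 0.0575, limma), which left 4 of the 8 lower, nor without Btg4wt replicate 1, without Btg4tm replicate 1 or without Btg4tm replicate 2. Nlrp4b was at 308 and 382 against 279 and 296. Its libraries did not overlap either, but the change of -0.25 did not pass the test (adjusted p = 0.119, limma). It did pass as lower with quantile normalization (-0.42, adjusted p = 0.0172, limma), where 6 of the 8 did.

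Of the Nlrp9 genes, Nlrp9c was at 674 and 663 in Btg4wt and 456 and 512 in Btg4tm, a change of -0.47 ± 0.10 (adjusted p = 0.00621, limma). Nlrp9b was at 436 and 382 against 323 and 286, and its change was -0.42 ± 0.11 (adjusted p = 0.0108, limma), which did not pass without Btg4wt replicate 1 (adjusted p = 0.0693). Both were lower in each Btg4tm library than in each Btg4wt library. Nlrp9a was at 534 and 548 against 570 and 538, with overlap, and the change of 0.03 had a 95% interval from -0.18 to 0.24. Nlrp14 was at 2928 and 2464 in Btg4wt and at 3514 and 2784 in Btg4tm. The ranges overlapped, and the change of 0.22 ± 0.14 did not pass (adjusted p = 0.232, limma).

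The direction in this comparison was opposite to that in MII against GV for 5 of the 8 genes, namely Nlrp4a, Nlrp4c, Nlrp4e, Nlrp9c and Nlrp14. These comparisons share no library. Among all genes tested 82.8% had opposite signs, so the share among the 8 (62.5%) was not above that of the rest. Nlrp9b was lower in both, at -0.29 and -0.42, and passed the test in both. Nlrp4b was at -0.07 and -0.25 and Nlrp9a at 0.28 and 0.03.

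The third comparison, Btg4wt against MII, shows what injection of the wild-type cRNA went with. None of the 8 genes passed the test in limma, and neither did any other gene (0% of 13968). At an unadjusted p under 0.05 there were 2 of the 8, against 11.8% of all genes, Nlrp4b at 0.51 (adjusted p = 0.222) and Nlrp9b at 0.27 (adjusted p = 0.387, limma). The libraries of these groups came in separate sets of tables, one for the uninjected and one for the injected oocytes, so injection and set cannot be told apart. Nlrp4a was at 0.23 and Nlrp14 at 0.21, with 95% intervals from -0.0086 to 0.46 and from -0.11 to 0.54.

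The fourth comparison sets Btg4tm MII oocytes beside GV oocytes, which were uninjected and at another stage. None of the 8 was called, against 2.04% of all genes in either direction. Under the median of ratios Nlrp4a was the same in both on average, at 353 in GV and 354 scaled TPM in Btg4tm. The 95% interval of its log2 difference ran from -0.24 to 0.23. Nlrp4e, at 125 and 122, differed by -0.03, with an interval from -0.29 to 0.23. With no minimum change, Nlrp9b was lower at -0.45 ± 0.11 (adjusted p = 0.0335, limma), where 3.73% of all genes were. Nlrp9c was higher at 0.40 ± 0.10 (adjusted p = 0.0467, limma), where 7.66% were. The pass of Nlrp9c was lost with TPM as deposited (adjusted p = 0.116) and with no filter (adjusted p = 0.054), and that of Nlrp9b with only the 4 libraries compared (adjusted p = 0.122, limma). Without GV replicate 1, without GV replicate 2 or without Btg4tm replicate 2 neither passed. Nlrp9c in Btg4tm, at 456 and 512, lay above both GV libraries and below both MII libraries. Nlrp9b in Btg4tm, at 323 and 286, was below every library of the other groups. With the mitochondrial scaling Nlrp4a was lower in Btg4tm than in GV at -0.63 (adjusted p = 0.0164, limma). Nlrp4e was then at -0.66 (adjusted p = 0.0315, limma), and the median of all genes was -0.64.

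Ratios of these genes within a library are free of any scaling between libraries. The ratio of Nlrp4a to Nlrp4b was 1.38 and 1.41 in GV, 2.42 and 2.70 in MII, 2.35 and 1.88 in Btg4wt, and 1.16 and 1.29 in Btg4tm. It was higher in every MII and Btg4wt library than in every GV and Btg4tm library. The ratio of Nlrp9c to Nlrp9a was 0.810 and 0.777 in GV, 1.18 and 1.16 in MII, 1.26 and 1.21 in Btg4wt, and 0.800 and 0.952 in Btg4tm. In TPM Nlrp9c thus exceeded Nlrp9a in MII and Btg4wt oocytes and was below it in GV and Btg4tm oocytes. Which gene is the higher rests on the gene lengths used, which are not given in the sources used here. The ratio of Nlrp9c to Nlrp9b went from 0.960 and 0.808 in GV to 1.93 and 1.94 in MII. In Btg4tm it was 1.41 and 1.79, well above GV, and the Btg4wt values of 1.55 and 1.73 lay within that range. With 2 libraries against 2, the smallest two-sided p that an exact permutation test can give is 0.333, so these ratios are given without a test. They show unequal change within the families and not which of the genes in a pair moved.

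**Figure D3:**
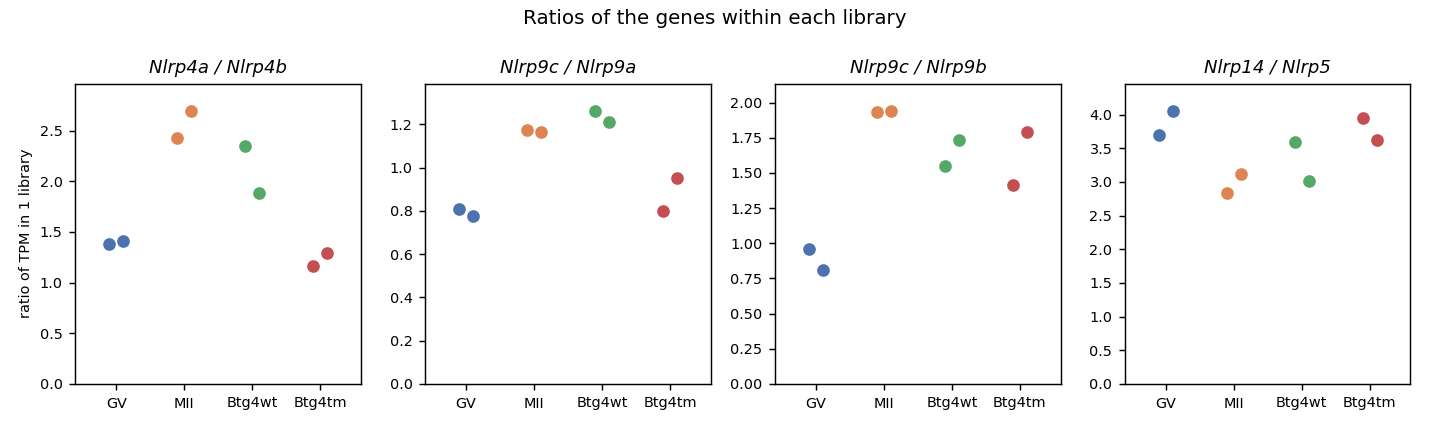
Ratio of TPM of 2 genes within the same library on a linear axis from 0, with 1 point per library for the 4 groups. Nlrp4a over Nlrp4b and Nlrp9c over Nlrp9a are high in MII and Btg4wt and low in GV and Btg4tm, and Nlrp14 over Nlrp5 stays between 2.83 and 4.05.

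Other members of the NLR family and the subcortical maternal complex give the setting. In this complex, which anchors maternal proteins under the oocyte surface, 8 of 8 genes were tested. In MII against GV, Tle6 (-1.52), Khdc3 (-1.99) and Nlrp2 (-1.14) were called lower and Zbed3 (1.18) was called higher, with a median of -0.42. Nlrp5, the neighbour of Nlrp4e, was at 788 and 637 scaled TPM in GV and 821 and 742 in MII, and its change of 0.14 did not pass the test (adjusted p = 0.365, limma). In Btg4tm against Btg4wt, Tle6 (1.47) and Khdc3 (1.19) were called higher and Zbed3 (-1.25) lower, and the median was 0.13. The ratio of Nlrp14 to Nlrp5 was 3.70 and 4.05 in GV and 2.83 and 3.11 in MII. The ratio of Nlrp14 to Nlrp2 rose from 12.9 and 12.6 to 21.6 and 26.4.

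Of 19 other NLR genes 7 were listed in at least one table and 5 were tested. Nlrp4g, a transcribed pseudogene of the Nlrp4 branch, was by far the highest, at 435 and 367 scaled TPM in GV and 520 and 502 in MII, with a change of 0.35 (adjusted p = 0.0245, limma). Nlrc3 (1.38), known as a negative regulator of immune signalling, was called higher in MII at a level of at most 5.04. Naip1 (-1.62), a sensor of bacterial proteins, was called lower in MII and higher in Btg4tm (1.33). Of 6 inflammasome components only Casp1 and Il18 were listed, at no more than 0.793 and 3.98 scaled TPM, and Pycard, the adaptor, was not listed. Nlrp1a, Nlrp1b and Nlrp3 were not listed either.

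Of 4 genes linked to NLRP14, 3 were tested and Slc8b1, which encodes NCLX, was not listed. Uhrf1, which recruits the maintenance methyltransferase to DNA, was at 147 and 156 in GV and 218 and 204 in MII, a change of 0.47 (adjusted p = 0.00276, limma). It was at 257 and 236 in Btg4wt and 180.5 and 179 in Btg4tm, lower by 0.45 (adjusted p = 0.00485, limma). Dnmt1, the maintenance methyltransferase, was called lower in Btg4tm at -1.01. Dppa3, which keeps UHRF1 out of the nucleus, did not pass in Btg4tm, at 0.0023. Of these genes none was called in MII against GV.

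Over the 8 libraries the 8 genes had unlike profiles. The profile most like each was taken from the log2 values centred on the gene's mean, by root mean square distance to 13967 other genes. For Nlrp4a it was Fxr1, at a distance of 0.0434, for Nlrp9c Psma2 at 0.0442, for Nlrp9a Pdcl3 at 0.0453 and for Nlrp4e Slc39a6 at 0.0476. For Nlrp9b it was Ski at 0.0578, for Nlrp4b Pi4ka at 0.0816 and for Nlrp4c Gm8935 at 0.109. The nearest to Nlrp14 were Utp14a (0.0739), Psph (0.0766) and Uchl5 (0.0836). No other member was among the 100 nearest genes of any of them. The most alike pair of members, Nlrp4e and Nlrp9c, was 0.200 apart, and Nlrp9c ranked 923rd among the genes nearest to Nlrp4e.

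Genes near the 8 on the chromosome were mostly low or unlike them. Within 200 kb of a start, 18 other genes were listed and 16 tested. In MII against GV, Ceacam20 (1.32) near Nlrp9b was called higher, and Igsf23 (-1.66) near Nlrp9b and Cyp2b23 (-1.87) near Nlrp9a were called lower. In Btg4tm against Btg4wt only Igsf23 (1.28) was called. Ceacam20 and Igsf23 lie on the same side of Nlrp9b, which itself changed by -0.29 and -0.42.

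The CPE letters, shown above for Nlrp4a and Nlrp4c, can be set beside the changes of all genes as a description. The 2100 genes with TTTTAT or TTTTAAT had a median of 0.48 in MII against GV, and the 8997 without had -0.07. In Btg4tm against Btg4wt the medians were -0.20 and 0.02. Nlrp4a, at 0.80 and -1.03, lay on the side of the genes with the letters in both. Nlrp4c, at 0.02 and -0.63, did so in the second. Members without such letters in this window lay on that side too. They were Nlrp9c (0.84 and -0.47) and Nlrp4e (0.39 and -0.63) in both comparisons. Nlrp9a (0.28) did so in the first, and Nlrp9b (-0.42) and Nlrp4b (-0.25) in the second. Nlrp14 (-0.24 and 0.22) did so in neither. Nor did Nlrp9b (-0.29) and Nlrp4b (-0.07) in the first, or Nlrp9a (0.03) in the second. Members with the letters and members without them thus lay on the side of the genes with the letters. A part of the CPE in these changes was not tested.

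The scaling of the libraries moved the median of all genes, and quantile normalization did not move all genes alike. The plot of the same changes under 4 scalings shows the order of the 8 genes under each. In MII against GV the median of all genes was -0.13 with TPM as deposited, 0.27 with quantile normalization and -1.74 with the mitochondrial scaling. The calls over all genes went from 3351 lower and 1752 higher to 3699 and 1145 with TPM as deposited, and to 2711 and 3102 with quantile normalization. Nlrp4a and Nlrp9c were above the median of all genes under each of the 4 scalings, and Nlrp9b and Nlrp14 were below it. Quantile normalization forces the levels of every library to a common distribution. With it Nlrp14 moved the most of the 8, from -0.24 to -0.85, and the cause was not tested. In Btg4tm against Btg4wt Nlrp4a was -1.13 with quantile normalization and 0.05 with the mitochondrial scaling, where the median of all genes was 0.88. Nlrp9a and Nlrp14 were above that median under each scaling, and under the mitochondrial scaling both were called higher, at 1.12 and 1.31, as were 43.6% of all genes, while none of the 8 was called lower, against 0.494%. In Btg4tm against GV 1 of the 8, Nlrp9b, was then called lower, against 21.3% of all genes.

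**Figure D4:**
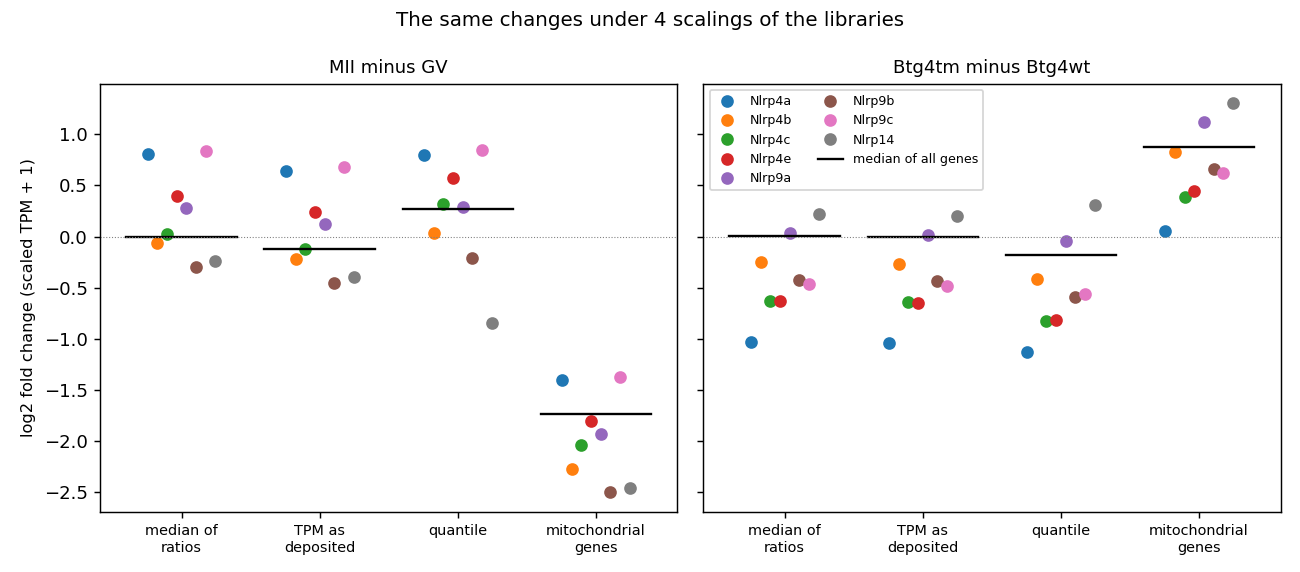
Log2 fold change of scaled TPM + 1 of each of the 8 genes (colours) under 4 scalings of the libraries, for MII minus GV and Btg4tm minus Btg4wt, with the median of all genes tested as a black line. The median line shifts with the scaling, most with the mitochondrial genes, while Nlrp4a and Nlrp9c stay above the line on the left and Nlrp4a stays lowest on the right.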

How the data were processed

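Polyadenylated RNA of 8 Smart-seq2 libraries was analysed, 2 for each of 4 groups taken from the sample labels. The authors deposited TPM per gene symbol. According to the submitters' processing notes, reads were trimmed with Trim Galore 0.6.10, aligned to GRCm38 with HISAT2 2.2.0 and counted with featureCounts 2.0.6. The study's methods state that counting ignored strand and dropped reads of low mapping quality. Its own test on counts was not used here, since TPM are not counts.

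From the deposited TPM, values were scaled to a median of ratios over genes above 0 in every library, a gene was kept if 2 or more libraries reached 1 TPM, and log2(TPM + 1) was tested with limma 3.58.1 in R 4.3.3 (eBayes with trend, two-sided) over all 8 libraries. No source says that libraries of a group came from separate animals, so p-values measure the spread between these libraries, which may be technical. The fit was tested on simulated data.

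The 8 members and all gene lists were chosen with earlier results of these data known. The named genes were the members, genes of the fixed lists, the nearest profiles (3 for Nlrp14, 1 for each other member) and called genes within 200 kb. Sequences came from GENCODE M21 transcripts (Biopython 1.88 for alignment) and RefSeq promoters. Same-numbered libraries of the compared groups did not deviate together, with correlations of -0.0157, 0.0555, -0.0539 and 0.0405, so the numbers were not used as pairs. Alternatives were other scalings, pseudocounts, filters, thresholds, a replicate block, fits without trend or on the 4 libraries compared, and leaving out each library.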

Additional observations from a re-analysis of the deposited data

How the results depend on the processing

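Scaling to the mitochondrially encoded genes changed the most. Under it, members called lower in MII against GV went from 0 to 8 (81.6% of all genes), those called lower in Btg4tm against Btg4wt from 1 to 0 (0.494%), those called higher there from 0 to 2 (43.6%), and those called lower in Btg4tm against GV from 0 to 1 (21.3%). 5 changes turned sign in MII against GV, to -1.41 for Nlrp4a, -2.04 for Nlrp4c, -1.81 for Nlrp4e, -1.93 for Nlrp9a and -1.37 for Nlrp9c. In Btg4tm against Btg4wt every negative change became positive. Nlrp4a became 0.054, Nlrp4b 0.83, Nlrp4c 0.39, Nlrp4e 0.45, Nlrp9b 0.66 and Nlrp9c 0.62, while the median of all genes was 0.88. Of these, Nlrp4b (adjusted p = 0.00536), Nlrp9b (adjusted p = 0.0191) and Nlrp9c (adjusted p = 0.0134) passed as higher in limma. The cause was not tested. Dropping the minimum change under the median of ratios can only add genes. In MII against GV 1 member was then lower (32.8% of all genes) and 4 were higher (29.8%). In Btg4tm against Btg4wt 5 were lower (23.3%) and none was higher (26.2%). In Btg4tm against GV 1 was lower (3.73%) and 1 higher (7.66%).

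Leaving out each library in turn gave 0 to 1 members called lower in Btg4tm against Btg4wt. The 0 came without Btg4tm replicate 1, where Nlrp4a was at -0.92. The fit with a replicate block gave the same 0, 1, 0 and 0 members called lower and 0 called higher in the 4 comparisons as the fit without it. With no minimum change it lost Nlrp4c in Btg4tm against Btg4wt (adjusted p = 0.0607) and Nlrp9c in Btg4tm against GV (adjusted p = 0.0631), both in limma. The fit without trend lost these passes too (adjusted p = 0.062 and 0.123), as did the fit on only the 4 libraries compared (adjusted p = 0.0586 and 0.0733). Without trend, Nlrp9a (adjusted p = 0.096) and Nlrp9b (0.109) also lost theirs in MII against GV, and Nlrp9b (0.0966) in Btg4tm against GV. In MII against GV, Nlrp4e (0.111) and Nlrp9a (0.268) did not pass with TPM as deposited. Nor did Nlrp9b with quantile normalization (adjusted p = 0.17, limma). Over the alternatives other than mitochondrial scaling, Nlrp4a ranged from 0.65 to 0.84 in MII against GV and from -1.15 to -0.92 in Btg4tm against Btg4wt, and Nlrp9c from 0.68 to 0.93 and from -0.56 to -0.39. The share of a decline regained in Btg4tm was not computed, since no member was called lower in MII, and no member was listed in only one set of tables. Depth is unknown, and 2 libraries per group limit the precision.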

Other observations

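Between libraries of the same group the 8 genes differed by a median of 0.05 to 0.17 on the log2 scale, against 0.18 to 0.23 for all genes tested. The member that differed most was Nlrp4e in GV (0.21), Nlrp4c in MII (0.49) and Btg4wt (0.46), and Nlrp14 in Btg4tm (0.34). The summed level of Nlrp4a, Nlrp4b, Nlrp4c and Nlrp4e was 744 and 744 scaled TPM in GV and 1045 and 1027 in MII. It was 1249 and 1298 in Btg4wt, and 745 and 804 in Btg4tm. Nlrp4f and Nlrp4g are not in this sum. Nlrp4f was at 944 and 909 scaled TPM in GV and 1019 and 1038 in MII. It was at 1285 and 1576 in Btg4wt, and 1198 and 1126 in Btg4tm. The summed level of the 3 Nlrp9 genes was 1282 and 1210 in GV and 1587 and 1529 in MII. It was 1644 and 1593 in Btg4wt, and 1348 and 1336 in Btg4tm.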
